A study of Mus musculus with 12 samples.

Results

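Enteroendocrine cells are the rare hormone-secreting cells of the gut epithelium, and 31 genes of these cells were followed in mouse colonic organoids, of 36799 genes and transcripts on the array. The 31 were 10 peptide hormone genes, 3 genes of amine synthesis and storage, 10 genes of secretory granules and prohormone processing, and 8 transcription factors. Each was measured by every probe whose transcript carries its symbol, 39 probes in all of 55681. Of the 29 that could be tested, none passed for calcitriol or for loss of the vitamin D receptor, and 15 passed a test between mice of different replicate numbers, which was added after the data had been seen and in which 11.8% of all genes passed. The proglucagon gene Gcg was 5.26-fold apart there.

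In the gut, stem cell progeny that switch on Neurog3 become enteroendocrine cells, and a cascade of transcription factors then settles which hormone each cell makes. Peptide hormones are cut from longer precursors by convertases and stored with granins in dense-core granules, which are released when nutrients, bacterial products or bile acids reach the cell. In the colon the best known of these cells are the L cells, which make proglucagon, peptide YY and Insl5, the enterochromaffin cells, which make serotonin, and the D cells, which make somatostatin.

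The organoids were grown in Matrigel as stem-cell-enriched cultures from colonic crypts of C57BL/6 mice. Calcitriol, written 1,25(OH)2D3 in the labels, is the vitamin D hormone. The 4 groups were Vdr knockout with calcitriol, Vdr knockout with ethanol vehicle (EtOH), wild type with calcitriol and wild type with ethanol vehicle, with 3 arrays each, from 3 knockout and 3 wild-type mice. Each mouse gave 1 calcitriol and 1 vehicle culture. Calcitriol was used at 100 nM and renewed every 48 h, and the labels give both 62 h and 72 h as the duration. Mice with replicate numbers 1 and 3 were 2 months old and those with number 2 were 3 months old, in both genotypes. Vdr encodes the receptor that binds calcitriol, and the labels give no allele, promoter or Cre for the knockout.

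A level is the log2 processed signal relative to the 75th percentile of its array, so 0 is the signal of that percentile and a difference of 1 is a doubling. Levels of different genes come from different probes and cannot be set against each other. The 75th percentile was at a processed signal of 580.6 to 790.5, and 55.0% to 66.4% of spots were well above background on 11 arrays and 72.8% on the vehicle array of wild-type mouse 2. Vdr lay at -0.43 to 0.36 on the 6 knockout arrays, against 0.81 to 2.01 on the 6 wild-type arrays, and the genotypes did not overlap. Cyp24a1, which degrades calcitriol and is the classical target of its receptor, was at 5.59 to 6.45 in wild-type calcitriol cultures, against -7.48 to -4.13 in wild-type vehicle cultures. The epithelial markers Epcam, Cdh1, Krt20, Lgr5 and Muc2 were above background on all 12 arrays. Of 14 markers of enteric neurons and glia, 11 were above background on at least 1 array and 4 on all 12, while Uchl1 and S100b were among those above background on none. The Y-linked gene Ddx3y was above background on the 4 arrays of number 2, labelled female, and on none of the 8 others, of which those of number 1 are labelled male, so the sex labels go against the data in both genotypes. There were 3 slides. Knockout calcitriol cultures 1 and 2, knockout vehicle culture 3, the wild-type calcitriol cultures and wild-type vehicle culture 3 were on the largest (7 arrays), knockout calcitriol culture 3 and wild-type vehicle cultures 1 and 2 on the next, and knockout vehicle cultures 1 and 2 on the smallest.

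Most of the 31 genes were detected. On all 12 arrays, 24 were well above background, against 54.2% of all genes. This held for 8 of 10 hormone genes, all 3 amine genes, all 10 granule and processing genes and 3 of 8 transcription factors (Insm1, Nkx2-2 and Fev). Gip and Sst were above background on 8 arrays each, Pax4 and Rfx6 on 10 each and Isl1 on 7. Neurod1 was above background on 4 arrays and Pax6 on none. The last 2 never reached background on all arrays of a group, and the tests below cover the other 29. Of these, Sst and Isl1 were kept only because all wild-type calcitriol arrays measured them, and Gip only because all knockout calcitriol arrays did, so their high values in that group were part of the choice. In bulk RNA of this kind, fewer cells of a type and less RNA per cell cannot be told apart.

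Calcitriol against vehicle in wild-type organoids asks what the hormone does where its receptor is present. No gene of the 29 passed (limma, Benjamini-Hochberg adjusted over 24245 genes, threshold 0.05), where 0.161% of all genes did, and none passed with mouse as a block, where 0.965% did. At an unadjusted p under 0.05, 1 gene passed without the block, where 4.52% of all genes did, and 9 with it, where 9.99% did. Of the 9, 7 were higher and 2 lower with calcitriol, where 3.79% and 6.20% of all genes were. The median difference of the 29 was 0.19, against -0.03 over all genes tested, and 18 of 29 were above 0, against 44.8% of all genes. By role the medians were 0.15 for hormones, -0.14 for amine genes, 0.20 for granule genes and 0.37 for transcription factors.

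The transcription factors held the smallest p-values in this comparison. Rfx6, a winged-helix factor that endocrine cells of gut and pancreas need, lay at -3.53, -3.67 and -5.10 in the calcitriol cultures of wild-type mice 1, 2 and 3, against -4.91, -5.45 and -6.61 in their vehicle cultures. Each mouse was higher with calcitriol by 1.38 to 1.79, while the groups overlapped because mouse 3 was low under both treatments. The mean difference was 1.56 (SE 0.52, 95% interval 0.42 to 2.69), and it did not pass (limma adjusted p = 0.914, and 0.121 with mouse as a block). Rfx6 was above background on all 3 calcitriol arrays and on 1 of 3 vehicle arrays, and its difference was 0.19 when the background was corrected by the normexp method.

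Insm1, a zinc-finger repressor that acts early in endocrine differentiation, lay at 0.14, 0.52 and 0.00 in calcitriol cultures, against -0.48, 0.21 and -0.60 in vehicle cultures of wild-type mice 1, 2 and 3. It was higher with calcitriol in each mouse, though mouse 2 in vehicle lay above mice 1 and 3 in calcitriol. The mean difference was 0.51 (SE 0.30, limma adjusted p = 1.0, and 0.0754 with the block). Isl1, a LIM-homeodomain factor of hormone-expressing cells, differed by 0.84 (SE 0.55), but was above background on only 1 of 3 vehicle arrays and was kept through the calcitriol group, so this difference is given as a description. Nkx2-2, Pax4 and Fev differed by -0.30, -0.07 and 0.23, each with an SE of 0.26 to 0.49.

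Among the hormones, Insl5, a relaxin-family hormone of colonic L cells, lay at 0.14, 1.33 and -0.10 in calcitriol cultures, against -0.89, 0.89 and -0.35 in vehicle cultures of wild-type mice 1, 2 and 3. The groups overlapped, and the difference of 0.57 (SE 0.88) did not pass (limma adjusted p = 1.0, and 0.239 with the block). Nts, the precursor of neurotensin, lay at -4.91, -4.07 and -4.53 with calcitriol, against -4.31, -2.39 and -4.06 with vehicle. It was lower with calcitriol in all 3 mice, by 0.92 on average (SE 0.74, limma adjusted p = 1.0, and 0.427 with the block). The L cell hormones did not go one way: Gcg (proglucagon) was lower with calcitriol in all 3 wild-type mice, with a difference of -0.21, and Pyy (peptide YY) higher in all 3, with a difference of 0.16.

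Of the granule genes, Chga (chromogranin A), the general marker of dense-core granules, lay at 1.73, 2.09 and 0.66 with calcitriol, against 1.33, 1.42 and 0.16 with vehicle in wild-type mice 1, 2 and 3. Its difference of 0.52 (SE 0.55) was 0.40 to 0.67 in the single mice and did not pass (limma adjusted p = 1.0, and 0.343 with the block). Scg2 (secretogranin II) went the other way in all 3 mice, with a difference of -0.52 (SE 0.61), as did the prohormone convertase Pcsk1, with -0.33 (SE 0.39). In all, 11 genes were higher with calcitriol in all 3 wild-type mice, against 15.1% of all genes, and 4 were lower, against 18.4%. The 11 were Pyy, Sct, Insl5, Slc18a1, Chga, Chgb, Scg5, Cpe, Isl1 (with the limit given above), Insm1 and Rfx6, and the 4 were Gcg, Nts, Scg2 and Pcsk1.

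**Figure D1:**
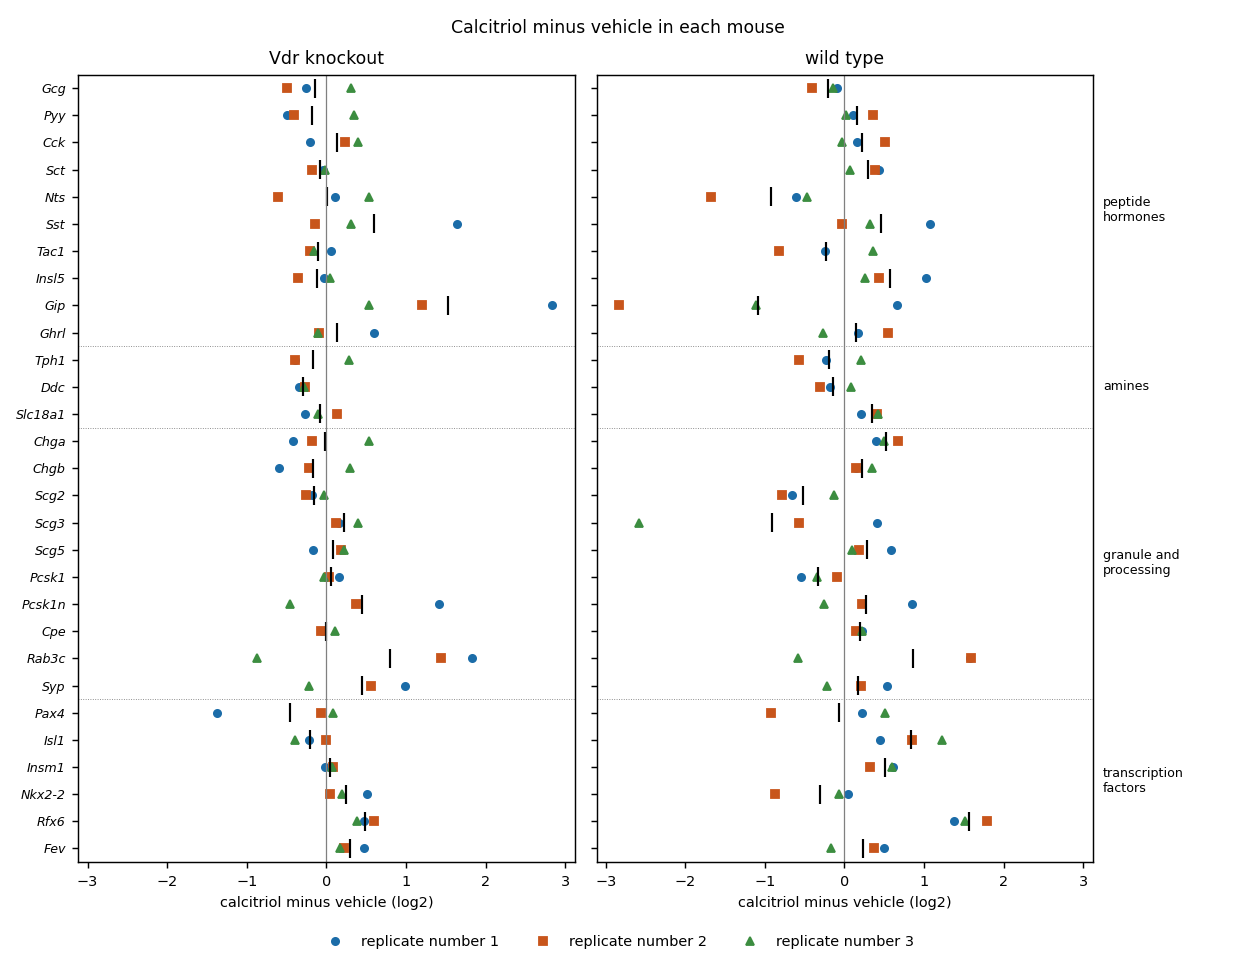
Calcitriol minus vehicle on the log2 scale (x axis) for each of the 29 genes tested (rows, by role), with knockout mice on the left and wild-type mice on the right. Symbols are single mice by replicate number and black ticks are means of 3 mice; Rfx6 and Insm1 lie right of 0 in all wild-type mice, and Rfx6 also in all knockout mice.

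Leaving out mouse 3, whose wild-type arrays share 1 slide, changed these counts. Without replicate 3, every calcitriol array lay on another slide than the vehicle array of the same mouse. Rab3c then passed in wild type (1.58, limma adjusted p = 0.0308), where 0.346% of all genes did, and in knockout, where 0.619% did. With the block and without replicate 3, 6 genes passed in wild type (Chga, Insl5, Insm1, Rab3c, Scg2 and Sct), where 8.67% of all genes did. In that setting 6 genes also passed in knockout (Chgb, Ddc, Pcsk1n, Pyy, Rab3c and Syp), where 11.5% of all genes did. Slide and treatment cannot be told apart there.

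Calcitriol against vehicle in knockout organoids asks what the hormone does without its receptor. None of the 29 genes passed in either fit, as none of all genes did (0% called). The median was 0.01, against 0.04 over all genes, with 15 of 29 above 0, where 59.0% of all genes were. At an unadjusted p under 0.05, 1 gene passed, Ddc, both without the block, where 5.75% of all genes did, and with it, where 8.01% did. Ddc, the decarboxylase that makes serotonin from its precursor, lay at 3.17, 3.19 and 3.08 with calcitriol, against 3.51, 3.46 and 3.36 with vehicle in knockout mice 1, 2 and 3. These groups did not overlap, yet the difference of -0.29 (SE 0.12, 95% interval -0.55 to -0.04) did not pass (limma adjusted p = 0.842, and 0.576 with the block). A second Ddc probe gave -0.24. In wild type the difference of Ddc was -0.14.

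Gip, the incretin of K cells, which lie mainly in the upper small intestine, lay at -4.84, -5.33 and -4.93 with calcitriol in knockout mice 1, 2 and 3, against -7.68, -6.53 and -5.47 with vehicle. All 3 mice were higher with calcitriol, by 1.53 on average (SE 0.76, limma adjusted p = 0.842, and 0.576 with the block). These values are near background: 3 calcitriol arrays and 1 vehicle array measured it. Gip was kept for testing only through those 3 calcitriol arrays, so its higher values there were part of the choice. Its difference is therefore given as a description. The difference was 0.22 with the normexp correction, 0.44 with slide as a term and 0.38 on the largest slide. Rfx6 was higher in all 3 knockout mice too, by 0.38 to 0.60. In all, 5 genes were higher with calcitriol in all 3 knockout mice, against 15.9% of all genes, and 4 lower, against 12.8%. The 5 were Gip (with the limit given above), Scg3, Nkx2-2, Rfx6 and Fev, and the 4 were Sct, Ddc, Scg2 and Isl1.

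Whether the calcitriol effect differs between genotypes was tested directly, as the effect in wild type minus that in knockout. None of the 29 passed, where 0.0289% of all genes did, and none with the block, where 0.239% did. At an unadjusted p under 0.05, 1 gene passed without the block, where 3.39% of all genes did, and 4 with it (Insm1, Insl5, Sct and Gip), where 8.03% did. The median of this difference was 0.06, against -0.07 over all genes, with 16 of 29 above 0, where 39.3% of all genes were. The smallest p-values belonged to Gip at -2.62 (SE 1.07), Rfx6 at 1.07 (SE 0.73) and Nkx2-2 at -0.55 (SE 0.38), each with a limma adjusted p of 1.0. Gip was kept only through the knockout calcitriol arrays, so a negative value was favoured by the choice. Its place here and among the 4 genes is a description. The 95% interval for Rfx6 ran from -0.53 to 2.68, so no difference and a 4-fold difference both lie inside it. With the normexp correction the values were -0.85 for Gip and 0.06 for Rfx6, and that of Rfx6 was 1.88 with arrays scaled to their median and 2.08 with quantile normalization.

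Knockout against wild type in vehicle asks what loss of the receptor does without added hormone. None of the 29 genes passed, where 0.00412% of all genes did, and none with the replicate number as a block, where 0.0165% did. The median was 0.28, against -0.06 over all genes, and 22 of 29 were above 0, against 40.9% of all genes. The median of the 29 was -0.22 with slide as a term, knockout vehicle cultures 1 and 2 being alone on their slide, and -0.0754 without knockout vehicle replicate 2. At an unadjusted p under 0.05, 1 gene passed without the block, where 8.75% of all genes did, and 11 with it, where 14.9% did. Of the 11, 9 were higher in knockout and 2 lower, where 4.18% and 10.7% of all genes were. The 9 were Gcg, Pyy, Cck, Tph1, Chga, Chgb, Scg2, Scg5 and Pcsk1, and the 2 were Gip and Nkx2-2. In both genotype comparisons this block takes same-numbered mice as pairs and counts the 2 arrays of a mouse as independent. Its SEs and p-values there can therefore be too small.

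Chgb (chromogranin B) lay at 4.37, 4.91 and 3.57 in knockout vehicle cultures with numbers 1, 2 and 3, against 3.83, 3.97 and 2.66 in wild-type vehicle cultures. Each knockout culture was above the wild-type culture of its number, while the groups overlapped. The difference was 0.80 (SE 0.43, 95% interval -0.15 to 1.75) and did not pass (limma adjusted p = 0.626, and 0.302 with the block). It was 1.60 with arrays scaled to their median and 0.38 with slide as a term. Tph1, the rate-limiting enzyme of serotonin synthesis in the gut, lay at -1.65, 0.16 and -2.11 in knockout, against -2.27, -0.82 and -2.67 in wild type, with a difference of 0.72 (SE 0.67, adjusted p = 0.801, and 0.302 with the block). Gcg differed by 0.94 (SE 0.87), Cck by 0.66 (SE 0.64), Pyy by 0.64 (SE 0.81) and Chga by 0.58 (SE 0.55), all higher in knockout at each replicate number.

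Gip went the other way in vehicle, at -7.68, -6.53 and -5.47 in knockout, against -6.07, -2.79 and -4.23 in wild type. Its highest value came from the vehicle array of wild-type mouse 2, the one with the most spots above background. The difference was -2.20 (SE 0.76, limma adjusted p = 0.554, and 0.302 with the block), and -0.60 with the normexp background correction. Nkx2-2, a homeodomain factor of endocrine precursors, differed by -0.56 (SE 0.27), and by 0.24 when arrays were scaled to their median. Scaling to the median lifted the median of all genes in this comparison to 0.73.

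With calcitriol on both sides, none of the 29 passed between knockout and wild type, where 0.206% of all genes did, and none with the block, where 1.03% did. At an unadjusted p under 0.05, 1 gene passed without the block, where 2.99% of all genes did, and 7 with it (Scg2, Pcsk1, Tph1, Nts, Gcg and Cck higher in knockout, Insm1 lower), where 7.77% did. The median was 0.04, against 0.01 over all genes. Hormone genes were above 0 in 8 of 10 cases, granule genes in 7 of 10, amine genes in 2 of 3 and transcription factors in 0 of 6, against 52.5% of all genes. Gip and Isl1 were kept only through the group in which they were higher here. Of the 6 factors, Fev and Nkx2-2 differed by only -0.0039 and -0.0103. Scg2 lay at -1.76, -1.24 and -2.85 in knockout calcitriol cultures, against -2.38, -2.74 and -3.73 in wild-type calcitriol cultures with numbers 1, 2 and 3. It was higher in knockout at each number, by 1.00 (SE 0.61, limma adjusted p = 1.0, and 0.0987 with the block). Pcsk1, which cuts proglucagon and other prohormones, lay at -1.62, -1.95 and -2.18 in knockout and -2.36, -2.50 and -3.60 in wild type, and these groups did not overlap. Its difference was 0.90 (SE 0.39, 95% interval 0.06 to 1.75, limma adjusted p = 1.0, and 0.165 with the block).

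Nts lay at -4.44, -2.38 and -2.68 in knockout calcitriol cultures, against -4.91, -4.07 and -4.53 in wild-type ones. Its difference of 1.34 (SE 0.74) did not pass (limma adjusted p = 1.0, and 0.254 with the block) and was 0.77 with normexp. Gcg, Nts, Gip, Ghrl, Tph1, Scg2 and Pcsk1 were higher in knockout at all 3 numbers, 7 genes, against 16.4% of all genes. Slc18a1, Isl1 and Insm1 were lower at all 3, against 13.3%. Gip was kept only through the knockout calcitriol arrays and Isl1 only through the wild-type calcitriol arrays, so the directions of both were favoured by the choice. The calcitriol and genotype comparisons share arrays, so their directions are not independent of each other.

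**Figure D2:**
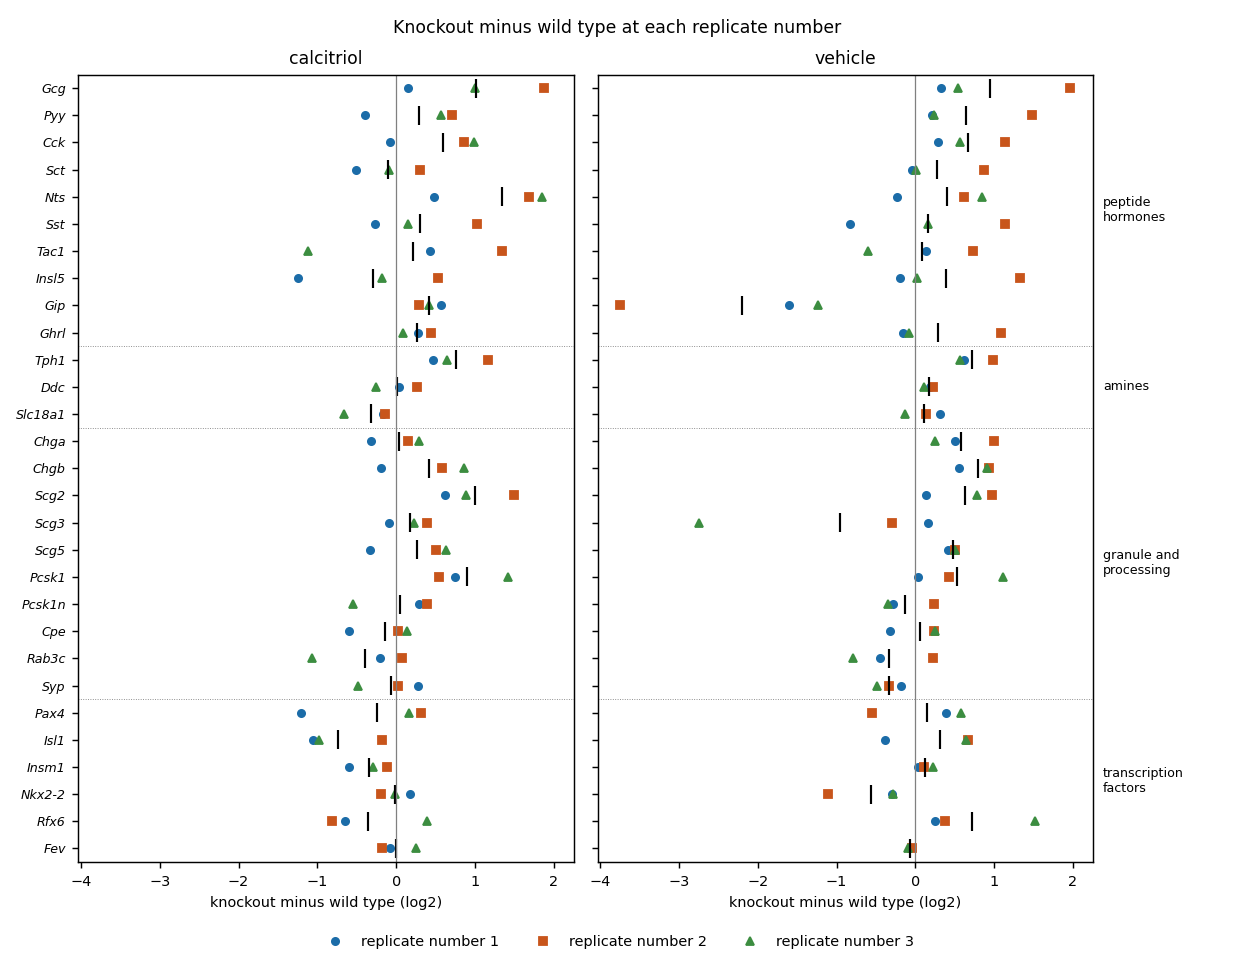
Knockout minus wild type on the log2 scale (x axis) for each of the 29 genes (rows, by role), in calcitriol cultures on the left and vehicle cultures on the right. Symbols are the replicate numbers and black ticks the means of 3; in vehicle, number 2 lies furthest right for 8 of 10 hormone genes, all but Nts and Gip, and furthest left for Gip.

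The levels were also compared between mice. Deviations from the group means were correlated between same-numbered mice of the 2 genotypes, so the numbers were compared with each other, after the data had been seen, on the means of the 2 arrays of each mouse with genotype as a term. Of the 29 genes, 15 differed between replicate numbers (limma F test, adjusted over all genes), where 11.8% of all genes did. These were 8 of 10 hormone genes (Gcg, Pyy, Cck, Nts, Sst, Tac1, Insl5 and Ghrl), 1 of 3 amine genes (Tph1), 5 of 10 granule genes (Chga, Chgb, Scg2, Scg5 and Cpe) and 1 of 6 transcription factors (Insm1). The median range between numbers was 1.99 for hormones, 0.38 for amine genes, 1.07 for granule genes and 0.77 for transcription factors, against 0.38 over all genes. Number 2 was the highest in all 4 groups for 15 of 29 genes, against 5.39% of all genes, and number 3 the lowest in all 4 groups for 10, against 4.12%.

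Pair by pair, number 2 was higher than number 1 for 8 genes, where 6.33% of all genes were, and lower for 1, where 6.20% were. Number 3 was lower than number 1 for 6 genes, where 3.82% were, and higher for 1, where 4.69% were. Number 2 was higher than number 3 for 7 genes, where 0.718% were, and lower for 0, where 0.417% were. At an unadjusted p under 0.05, 17 genes differed between numbers, where 30.1% of all genes did. The same number was the highest in all 4 groups for 18 genes, where it was for 20.3% of all genes, and the lowest for 13, where it was for 25.1%.

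L cell hormones were highest in number 2. Gcg lay at 1.08, 1.57, -0.80 and -0.39 in number 2 (knockout calcitriol, knockout vehicle, wild-type calcitriol and wild-type vehicle), against -2.04, -1.78, -2.19 and -2.10 in number 1. All 4 arrays of number 2 were above all 4 of number 1, and number 3 lay between, at -1.24 to -0.24. The difference between numbers 2 and 1 was 2.39, or 5.26-fold (SE 0.34, limma adjusted p = 0.00942). Insl5 lay at 1.86, 2.22, 1.33 and 0.89 in number 2, against -1.11, -1.08, 0.14 and -0.89 in number 1, a 4.97-fold difference (2.31, SE 0.33, adjusted p = 0.0093).

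Pyy split the numbers differently from Gcg. It lay at 3.65, 4.06, 2.94 and 2.58 in number 2, against 1.42, 1.08, 0.86 and 0.84 in number 3, and number 1 lay between them on average, at 2.25 to 2.75. Number 2 was 4.78-fold above number 3 (2.26, SE 0.24, limma adjusted p = 0.0101). Cck, the hormone that triggers gallbladder emptying, had the same order of numbers, with number 2 above number 3 by 1.61 (SE 0.22, adjusted p = 0.0211) and no call between numbers 2 and 1 (0.12, SE 0.22).

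Sst (somatostatin, the inhibitory hormone of D cells) was above background on all 4 arrays of number 2, on 3 of number 3 and on 1 of number 1. It lay at -2.96, -2.82, -3.98 and -3.95 in number 2, against -5.96, -7.61, -5.70 and -6.78 in number 1, a difference of 3.08 (SE 0.48, limma adjusted p = 0.0115) that rests on dim spots. It was 0.81 with normexp, and Sst was not called with quantile normalization. Nts and Ghrl (ghrelin, the hunger hormone best known from the stomach) were also higher in number 2 than in number 1, by 1.90 and 1.05. The difference of Nts was 0.86 with normexp. Neither gene was called with quantile normalization, Nts was not called on the largest slide alone, and Ghrl was not called with arrays scaled to their median. Tac1, which encodes substance P, was the exception. It was highest in number 1 in all 4 groups, at 1.14, 1.08, 0.71 and 0.95, against -1.62, -1.47, -0.50 and -0.86 in number 3, and number 2 lay at -1.74 to -0.20. Number 2 was lower than number 1 by 1.79 and number 3 by 2.08 (limma adjusted p = 0.0241 and 0.0195).

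Tph1 was highest in number 2, at -0.22, 0.16, -1.39 and -0.82, against -2.04, -1.65, -2.50 and -2.27 in number 1, a 2.93-fold difference (1.55, SE 0.19, limma adjusted p = 0.00712). The other amine genes did not pass between numbers: the 3 means of Ddc lay within 0.08 of each other, and those of Slc18a1, which loads serotonin into granules, within 0.38.

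The granins Chga, Chgb, Scg2 and Scg5 and the exopeptidase Cpe, which trims hormone precursors after the convertases have cut, had their lowest mean in number 3. Chga lay at 2.23, 2.41, 2.09 and 1.42 in number 2, against 0.95, 0.41, 0.66 and 0.16 in number 3, with number 1 between them in every group. Number 2 was 2.82-fold above number 3 (1.49, SE 0.14, limma adjusted p = 0.0063), and the F test across the 3 numbers gave an adjusted p of 0.00574. Chgb, Scg2 and Cpe were higher in number 2 than in number 3 by 1.15, 1.52 and 1.31 (adjusted p = 0.0265, 0.0336 and 0.0178). The difference of Scg2 was 0.98 with normexp, and Chgb, Scg5 and Cpe were not called with arrays scaled to their median. Scg5 was also not called with quantile normalization, on the largest slide alone or without the filter on dim probes. No pair of numbers passed for Scg5. The other granule genes did not pass: Pcsk1 spanned 0.90, Scg3 1.04 and Pcsk1n, an inhibitor of Pcsk1, 0.56, while Syp (synaptophysin) spanned 0.13 and Rab3c 0.09.

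Of the transcription factors, Insm1 was the one that passed, at 0.40, 0.32, 0.52 and 0.21 in number 2, against -0.47, -0.45, 0.14 and -0.48 in number 1 (0.68, SE 0.14, limma adjusted p = 0.023). The lowest array of number 2 was above the highest of number 1. Insm1 was not called with arrays scaled to their median or on the largest slide alone. Nkx2-2 and Fev, the other factors above background on every array, spanned 0.37 and 0.43. Rfx6 and Isl1 spanned 1.06 and 0.97 at levels close to background and did not pass.

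**Figure D3:**
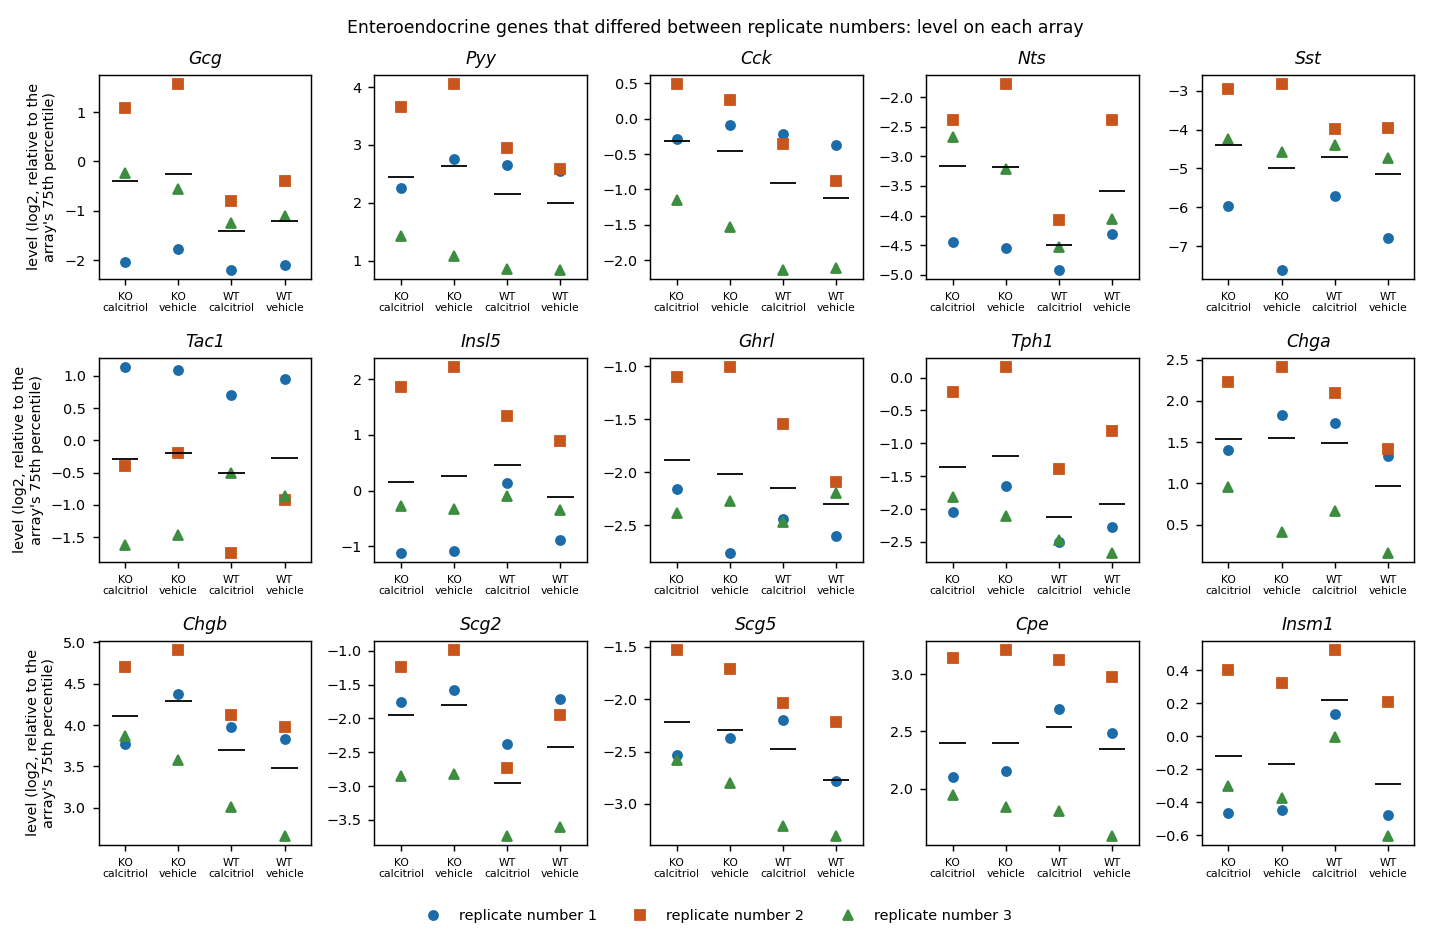
Level of the 15 genes that differed between replicate numbers, on each of 12 arrays (y axis, log2 relative to the 75th percentile of the array), in knockout and wild-type cultures with calcitriol or vehicle (x axis). Symbols mark the replicate number and black lines group means of 3; squares (number 2) are on top in most panels, circles (number 1) for Tac1, and triangles (number 3) at the bottom for Pyy, Cck, Chga, Scg2, Scg5 and Cpe.

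The difference between numbers was measured with few mice. Each number stands for 2 mice, 1 of each genotype, and for 4 arrays. Leaving out any 1 mouse gave 8 to 20 genes called, the fewest without wild-type mouse 1 or knockout mouse 1 (8 each, where 1.81% of all genes were called). Cck, Chga, Chgb, Cpe, Insl5, Pyy and Tph1 were called with each of the 6 mice left out. The 6 vehicle arrays alone gave 15 calls, where 16.2% of all genes were called. They were not the same 15 genes: Ghrl and Scg5 were not called there, and Rab3c and Pcsk1n were. Among the vehicle arrays only those of number 3 were on the largest slide, so slide and number 3 cannot be told apart there. The 6 calcitriol arrays alone gave 2, Chga and Pyy, where 0.945% were. Numbers 1 and 2 each had 2 arrays on the largest slide and 1 on each of the others, while number 3 had 3 on the largest and 1 on the next, so slide moves in part with the contrasts that involve number 3, such as those given for Pyy, Cck, Chga, Chgb, Scg2 and Cpe. On the arrays of the largest slide alone, 12 of the 15 were called, where 5.65% of all genes were. There numbers 1 and 2 had only calcitriol arrays, while number 3 had both wild-type arrays and the knockout vehicle array. Treatment thus moves in part with contrasts of number 3 on that slide. Each mouse but wild-type mouse 3 had only 1 array there. The number goes with the mouse and with its culture, and these cannot be told apart. Number 2 also differs in labelled age and in the Y-linked transcript, which was detected in number 2 alone. In contrasts with number 2 these cannot be told apart from mouse and culture either. Numbers 1 and 3 share the labelled age, and the transcript was detected in neither.

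Markers of other cell types were set beside these values. The summed signal of 8 enteroendocrine markers, of which 7 are among the 15 genes, was 30.0 to 65.4 times the 75th percentile in number 2, 24.4 to 34.7 in number 1 and 12.4 to 23.2 in number 3. The summed signal of 8 neuron and glia markers was 3.71 to 8.73 in number 2, 3.20 to 10.9 in number 1 and 3.86 to 11.3 in number 3, and none of the 8 was called between numbers. Of 12 epithelial markers 2 were called (Cdx2 and Vil1), of 5 immune markers 1 (Cd68) and of 4 fibroblast markers 1 (Pdgfrb). Over all genes 11.8% were called, so these small counts are no result about those cell types. The part of other cells in the result was not tested.

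The stretches before the starts of 6 of these genes are shown as examples of the letters counted after them, and were chosen after the values were seen; the first 5 hold a short element that cyclic AMP-responsive factors are known to bind. They are RefSeq sequences on GRCm38.p6, read in the direction of the gene. Capitals mark TGACGT, the core of that element, in the first 5 and CAGATG, an E-box that basic helix-loop-helix factors such as Neurod1 can bind, in Gcg. Both were searched on both strands. TGACGTCA reads the same on both strands and holds a match on each that overlaps the other.
Chga, chr12:102554841-102554920, plus strand: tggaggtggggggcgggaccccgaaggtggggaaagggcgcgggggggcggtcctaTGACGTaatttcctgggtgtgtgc
Chgb, chr2:132781542-132781621, plus strand: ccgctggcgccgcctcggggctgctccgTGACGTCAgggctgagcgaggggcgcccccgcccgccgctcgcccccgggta
Scg2, chr1:79440047-79440126, minus strand: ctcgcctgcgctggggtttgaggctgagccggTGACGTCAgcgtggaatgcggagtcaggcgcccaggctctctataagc
Pcsk1, chr13:75089757-75089836, plus strand: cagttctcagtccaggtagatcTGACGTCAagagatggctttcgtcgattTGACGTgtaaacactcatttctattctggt
Sst, chr16:23890865-23890944, minus strand: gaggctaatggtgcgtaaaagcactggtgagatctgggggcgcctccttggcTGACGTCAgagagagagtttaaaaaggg
Gcg, chr2:62483724-62483803, minus strand: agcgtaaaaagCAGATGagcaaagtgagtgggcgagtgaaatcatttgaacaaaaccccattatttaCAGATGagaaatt
The first 5 stretches run from base -100 to base -21 before the start of transcription and the Gcg stretch from -150 to -71.

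Over the 250 bases before the start, 27 of the 31 genes matched a RefSeq promoter, with 35 windows in all, since some have several starts. TGACGT was in 9 of these 35 windows (25.7%), those of Chga, Chgb, Scg2, Scg5, Pcsk1, Sst, Isl1 and Pax6, against 6.47% of 32851 windows of all genes. CAGATG was in 6 of 35 (17.1%), against 14.4%, and TATAAA in 5 of 35 (14.3%), against 12.4%. The direct repeat of AGGTCA with 3 bases between its copies, a form of the element bound by the vitamin D receptor, was in 0 of 35 and in 2 of all windows. These are counts of letters in a window and say nothing of binding. Of the genes with TGACGT, Chga, Chgb, Scg2, Scg5 and Sst differed between numbers, while Pcsk1 and Isl1 did not pass and Pax6 was not detected. Gcg, Pyy, Cck, Nts, Tac1, Insl5, Ghrl and Tph1 differed between numbers too and have no TGACGT in these windows.

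Rab3c, a small GTPase of secretory vesicles, followed the slide. It lay at 3.64 to 4.54 on the 7 arrays of the largest slide, against 2.51 to 2.96 on the other 5, with no overlap. Among the 29 genes it alone had all 7 arrays above the other 5, as did 6.10% of all genes. The gap was 1.43, larger than its calcitriol difference of 0.86 in wild type (SE 0.50) or 0.80 in knockout (SE 0.50). With slide as a term in the fit the wild-type difference was -0.20. A second Rab3c probe above background on all 12 arrays showed the same split. Another probe of the same transcript lay at -7.80 to -3.75, was above background on only 4 arrays and did not show the split.

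**Figure D4:**
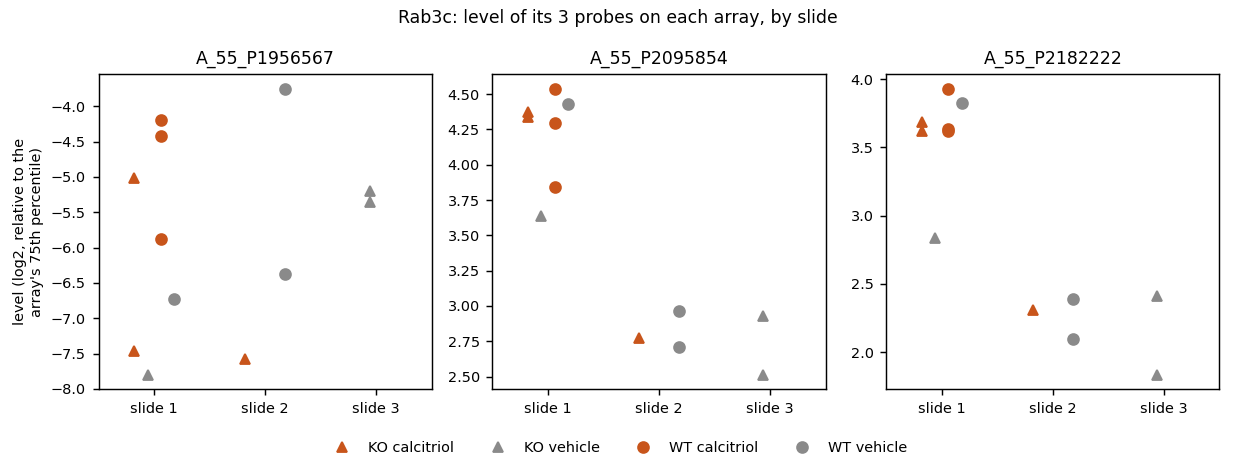
Level of the 3 Rab3c probes on each array (y axis, log2 relative to the 75th percentile of the array) by slide (x axis), with knockout and wild-type cultures as triangles and circles, and calcitriol and vehicle in orange and grey. In the middle and right panels all 7 arrays of slide 1 lie above the other 5, vehicle arrays included.

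A further 60 enteroendocrine genes were listed, of which 44 could be tested. None passed in any of the 5 comparisons without the block. With the block, Neurog3, the factor that starts the enteroendocrine fate, and Syt13, a synaptotagmin, passed for calcitriol in wild type. In that test 0.965% of all genes passed. In wild-type mice 1 and 2 the calcitriol array was on another slide than the vehicle array, so slide and treatment cannot be told apart in these mice. Neither gene was followed with slide as a term or with another scaling. Neurog3 lay at 2.36, 2.60 and 2.08 with calcitriol, against 1.07, 1.57 and 1.01 with vehicle in wild-type mice 1, 2 and 3, and the groups did not overlap. Its calcitriol difference was 1.13 in wild type (SE 0.22, limma adjusted p = 0.108, and 0.00326 with the block) and 0.04 in knockout. The effect in wild type minus that in knockout was 1.09 for Neurog3 (SE 0.32, limma adjusted p = 1.0, and 0.0402 with the block). It was the only call of the 44 genes in that test, where 0.239% of all genes passed with the block. Syt13 lay at -1.35, -1.04 and -2.28 with calcitriol, against -2.92, -2.30 and -3.08 with vehicle in wild-type mice 1, 2 and 3. Its calcitriol difference was 1.21 in wild type (SE 0.35, limma adjusted p = 0.62, and 0.0406 with the block) and -0.22 in knockout. Between knockout and wild type in calcitriol, Neurog3 and Syt13 were lower and Penk, the proenkephalin gene, was higher with the block (limma adjusted p = 0.0182 for Neurog3 and 0.0281 for Syt13). In that test 1.03% of all genes passed, and the limit of this block for genotype given above applies. Penk had mouse means of -4.15, -3.93 and -3.44 in knockout mice 1, 2 and 3, against -5.48, -6.51 and -5.43 in wild-type mice. Its wild-type means lie near or below the lowest levels called above background on those arrays (-5.96 to -4.23), so its call rests on dim spots.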

How the data were processed

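The files hold Agilent 1-colour scanner output, extracted with Feature Extraction 11.5.1.1 on probes annotated to mm9, per the file headers. The deposited processed intensity is background-subtracted per the file headers and not normalized between arrays. The labels' protocols state that 100 ng of RNA was labelled per array. No other table was used.

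Control spots and outlier spots were left out. The log2 of the processed intensity was taken, the 75th percentile of each array subtracted, and spots of a probe averaged. Accessions in the files were matched to RefSeq on GRCm38.p6, which gave 28026 of 55681 probes a symbol. Probes that the software called well above background throughout some group were kept (33410), and the brightest stood for its gene (24245 genes). limma 3.58.1 in R 4.3.3 fitted 4 group means on 12 arrays with a variance trend, with 2-sided tests and Benjamini-Hochberg adjustment at 0.05. The number of arrays limits the precision.

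A second fit had the replicate number as a block: it marks the mouse within a genotype, per the labels. In the genotype comparisons the number was a term without a term for the mouse, so arrays of the same mouse counted as independent. Deviations from group means correlated at 0.57, 0.32 and 0.32 in wild-type mice and 0.25, 0.59 and 0.10 in knockout mice. Between same-numbered mice of the 2 genotypes they correlated at 0.41, 0.40 and 0.34 with calcitriol and 0.64, 0.13 and 0.40 with vehicle. The genes and lists were chosen with earlier results of these data known, and the comparison of replicate numbers was added after the data were seen. By the rule for naming genes, members that passed with or without the block were to be given in full, and the 3 of smallest p where fewer passed; further genes were named for their role or direction after their values were seen. Alternatives were other scalings (median, quantile), normexp background correction of the median intensity, filters, probe rules, slide, variance models and leaving out arrays or mice.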

Additional observations from a re-analysis of the deposited data

Results flagged for a closer look

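For Sct and Isl1 the mice of one genotype all went one way and those of the other genotype all the other way. The share of all genes that did so was not counted, so both are given as a description. Sct, the secretin gene, was lower with calcitriol in knockout mice 1, 2 and 3, by 0.05, 0.18 and 0.02, and higher in wild-type mice, by 0.43, 0.39 and 0.07. The calcitriol effect in wild type minus that in knockout was 0.38 (SE 0.47) and did not pass (limma adjusted p = 1.0, and 0.586 with mouse as a block). Isl1 was lower with calcitriol in knockout mice, by 0.22, 0.00 and 0.39, and higher in wild-type mice, by 0.44, 0.85 and 1.23. Its difference of 1.05 (SE 0.78) did not pass either (adjusted p = 1.0, and 0.699 with the block), and Isl1 was above background on 1 knockout calcitriol array and 1 wild-type vehicle array. It was kept for testing only through the wild-type calcitriol arrays, so its higher values there were part of the choice.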

How the results depend on the processing

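No gene of the 29 was called in any calcitriol or genotype comparison under another scaling, background correction, filter, probe rule, slide term, variance model or choice of arrays, nor with the replicate block, except without certain mice. Leaving out replicates gave 0 to 6 calls for calcitriol in wild type (6 and 1 without replicate 3 with and without the block, and 1 with the block without knockout replicate 3, Chga, where 1.39% of all genes were called) and 0 to 6 in knockout (6 and, for Rab3c, 1 without replicate 3, where 11.5% and 0.619% of all genes were called), and 0 in the other 3 comparisons. Calls between replicate numbers were 8 to 20 with a mouse left out (1.81% to 26.1% of all genes), 2 on calcitriol arrays alone (0.945%), and 10 to 15 in the other settings (4.98% to 16.8%).

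Medians over the 29 genes depended on the scaling. With each array's median in place of its 75th percentile they were 0.70 for calcitriol in wild type, -0.29 in knockout, 0.87 for the difference and 1.07 for genotype in vehicle, where the median of all genes was 0.48, -0.26, 0.74 and 0.73. Quantile normalization gave 0.57 for genotype in vehicle, and normexp gave 0.0053 for calcitriol in wild type and -0.0877 for the difference. With slide as a term the medians were 0.44 for calcitriol in knockout, -0.26 for the difference and -0.22 for genotype in vehicle. On the largest slide they were 0.64 in knockout, 0.37 in wild type, -0.19 for the difference and 0.33 for genotype in calcitriol. Leaving out single arrays or mice gave -0.26 to 0.41 in knockout, -0.15 to 0.35 in wild type, -0.28 to 0.53 for the difference, -0.13 to 0.33 for genotype in calcitriol and -0.0754 to 0.51 in vehicle (0.505 without replicate 1). With the block and without replicate 3 the median was 0.308 in wild type.

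The signs of 2 named genes turned: Nkx2-2 with the array median (0.26 for the difference, 0.24 for genotype in vehicle) and Rab3c for calcitriol in wild type with slide as a term (-0.20) or on the largest slide (-0.20). The causes were not tested. Gip, Sst, Pax4, Isl1 and Rfx6 were not above background on every array, which limits what their differences show.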

Other observations

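Hormone genes outside the 31 also differed between replicate numbers. Of 6 further hormone genes tested, 4 were called (Ppy, Iapp, Vip and Adcyap1), and of all 44 further enteroendocrine genes 10, where 11.8% of all genes were. Ppy, the pancreatic polypeptide gene, lay at -2.15, -1.56, -2.66 and -3.05 in number 2 (knockout calcitriol, knockout vehicle, wild-type calcitriol and wild-type vehicle), against -4.27, -4.35, -2.96 and -5.00 in number 1. Number 2 was thus the higher in each group, as it was for Gcg, Insl5 and Pyy. Vip and Adcyap1, neuropeptide genes of one peptide family, were highest in number 1, as Tac1 was: Adcyap1 lay at 0.63, 0.94, 0.43 and 0.93 there, against -1.09, -0.71, -0.74 and -0.94 in number 2. Vgf, a granin-like precursor, had mouse means of -2.47 in knockout and -3.10 in wild type in number 2, against -3.72 and -4.56 in number 3.

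Among the regulators, Foxa2, a forkhead factor of gut endoderm, was called between numbers (limma adjusted p = 0.0198). It had mouse means of 2.43 in knockout and 2.38 in wild type in number 2, against 2.94 and 2.96 in number 1. These genes were listed with earlier results of these data known.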
